A study of Homo sapiens with 6 samples.

Results

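Dstyk, the gene taken here as the target of the knockdown, and the RIP kinases Ripk1, Ripk2, Ripk3 and Ripk4 were described across 6 RNA-seq libraries. The 5 genes were chosen by their Ensembl mouse gene IDs, ENSMUSG00000042046 for Dstyk, ENSMUSG00000021408 for Ripk1, ENSMUSG00000041135 for Ripk2, ENSMUSG00000022221 for Ripk3 and ENSMUSG00000005251 for Ripk4. All 5 are among the 54532 IDs of each library. The series title names the target as DSTY, which is read here as Dstyk, the dual serine/threonine and tyrosine protein kinase. The labels give the cells as A549, a long-established line grown from a human lung adenocarcinoma, in 3 groups of 2 libraries named NC, sh1 and sh4. The labels do not spell out these names, the sequence or the promoter of any construct, or whether a group is 1 clone. NC is read here as the control and sh1 and sh4 as knockdown groups aimed at one gene, which rests on the title and design text alone. No treatment or time is given for any group. Nothing says that the libraries of a group came from separate cultures, so the p-values measure only the spread between these libraries, which may be technical.

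The gene IDs go against the labels. All 54532 IDs carry the mouse prefix ENSMUSG and 0 carry the human prefix, while the labels state human cells and the submitters' processing notes name the human build hg18. Group names below therefore stand for the libraries so labelled, and gene names for the Ensembl mouse IDs. Of these IDs, 0 matched either gene name table used here, so the markers of lung epithelium and of other cell types, the other genes of the pathway and the genes' positions were not analysed here. Depth was lower in NC, with 15423886 and 14999786 reads recovered from the deposited values, than in sh1, with 17007929 and 18011798, and in sh4, with 17943938 and 17579950. The part of this difference in the results was not tested beyond the scaling alternatives of the closing section.

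RIP kinases share a related kinase domain at the start of the protein and differ in what follows it, which sets the receptors and adaptors they join. Ripk1 binds to activated death receptors such as the TNF receptor, where it acts as a scaffold for NF-kB signalling or passes on a signal for cell death. Ripk3 joins Ripk1 to start necroptosis, a lytic form of cell death, by phosphorylating Mlkl. Ripk2 carries signals from the intracellular sensors of bacterial cell wall fragments, Nod1 and Nod2, to NF-kB. Ripk4, which ends in ankyrin repeats, is required for the differentiation of the epidermis and other stratified epithelia. Dstyk has a related kinase domain and is known as a positive regulator of FGF receptor signalling to ERK in the developing urinary tract.

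Levels are in FPKM, fragments scaled to gene length and library depth, so that genes of different length can be compared. Of the 5 genes, 4 passed the filter of 1 FPKM in at least 2 libraries and were tested, and Ripk3 did not pass. Differences are log2 fold changes of FPKM + 1, which understate the change of low genes, with p-values from limma adjusted by the Benjamini-Hochberg method over all 12755 IDs tested and a threshold of 0.05. In sh1, 3 of the 4 tested genes passed this threshold against NC, Ripk1 higher and Ripk2 and Ripk4 lower, where 65.6% of all tested IDs passed, 32.4% higher and 33.2% lower. In sh4, Ripk1 was higher and Dstyk and Ripk2 lower, again 3 of 4, where 68.1% of all IDs passed, 35.0% higher and 33.2% lower. Between sh4 and sh1 all 4 passed, Ripk4 higher in sh4 and the other 3 lower, where 56.0% of all IDs passed, 29.5% higher and 26.4% lower. The last split was 3766 higher against 3373 lower, and it became 4858 against 2392 when every library was set to an equal sum of FPKM. With most IDs past the threshold in each comparison, a call alone sets none of these genes apart. The median absolute log2 fold change of the 4 genes was 0.63 in sh1 and 0.63 in sh4, beside 0.36 and 0.37 over all IDs. In sh1, Dstyk (-0.14) and Ripk2 (-0.22) changed less than the median ID, and Ripk1 (1.04) and Ripk4 (-2.04) more. In sh4, Ripk4 (0.20) changed less, and Dstyk (-0.52), Ripk1 (0.73) and Ripk2 (-0.75) more. A median of 4 genes chosen with earlier results known does not describe a trait of the set. Both comparisons with NC use the same 2 NC libraries.

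**Figure D1:**
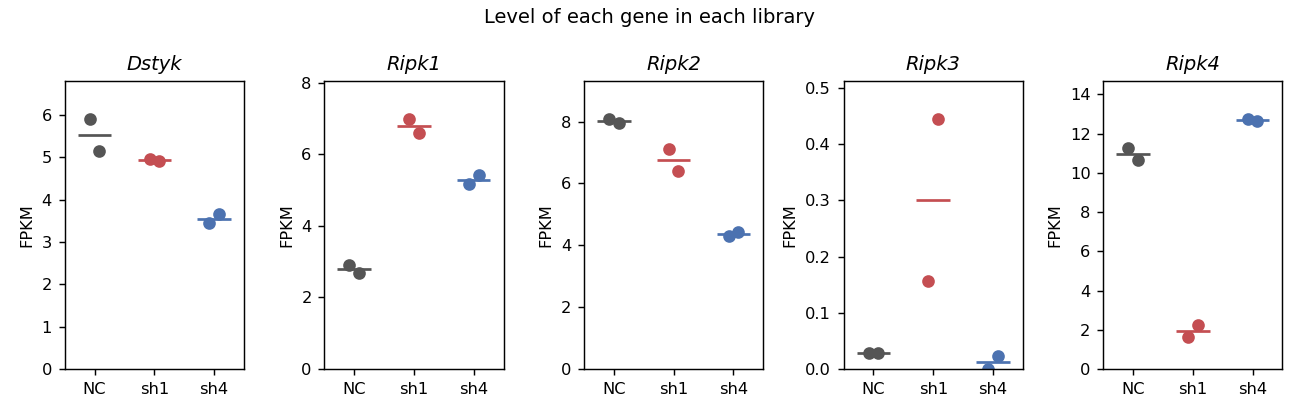
FPKM (vertical axes, each from 0 and with its own scale) of the 5 genes in the NC, sh1 and sh4 libraries; points are single libraries and bars are group means of 2. Dstyk was lowest in sh4, Ripk1 was highest in sh1, and Ripk4 was low in sh1 alone of the 3 groups.

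Dstyk was lowered in sh4, to 64.2% of its mean level in NC, and did not pass the test in sh1, where it stood at 89.3%. The NC libraries held 5.92 and 5.15 FPKM, from 873 and 738 reads over a gene length of 9345 bp. The sh1 libraries held 4.96 and 4.91 FPKM, from 775 and 809 reads. The sh4 libraries held 3.46 and 3.65 FPKM, from 597 and 626 reads. No group overlapped another, but the share of all IDs with groups so separated was not counted. The NC libraries differed from each other by 0.77 FPKM. The gap between the lower NC library and the higher sh1 library was 0.19 FPKM. The mean was 5.53 ± 0.54 FPKM for NC, 4.94 ± 0.035 for sh1 and 3.55 ± 0.14 for sh4 (SD, n = 2 each). Set library against library, the Dstyk level in sh1 was between 83.0% and 96.4% of that in NC, and in sh4 between 58.5% and 70.9%. In bulk RNA, a lower level in each cell and fewer cells with the transcript cannot be told apart.

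The log2 fold change of Dstyk in sh4 was -0.52 (SE 0.07, 95% confidence interval -0.67 to -0.36, adjusted p = 2.6e-05). In sh1 it was -0.14 (SE 0.07, interval -0.29 to 0.02, adjusted p = 0.11), so that both no change and a fall larger than the one measured lie within the interval. The effect in sh4 was larger than in sh1 by the direct test, with a difference of -0.38 (SE 0.07, adjusted p = 0.00050). The sh1 value turned on the NC libraries. It was -0.050 (adjusted p = 0.62) without NC replicate 1 and -0.22 (adjusted p = 0.031) without NC replicate 2. Scaled by total reads or to an equal sum of FPKM, the fall in sh1 also passed the threshold, at -0.19 (adjusted p = 0.037) and -0.20 (adjusted p = 0.038). The change of Dstyk was not large beside those of other IDs. In sh1, 79.2% of the tested IDs had a larger absolute log2 fold change, and in sh4 35.7% did.

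**Figure D2:**
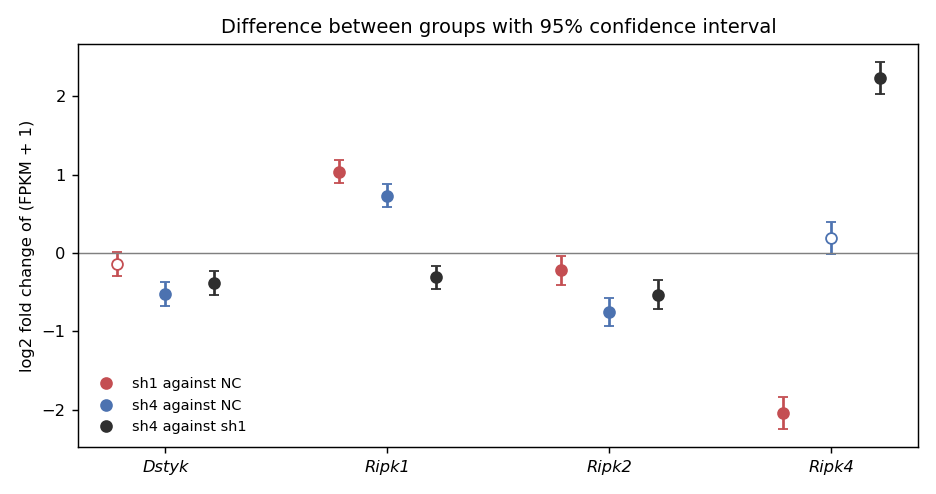
Log2 fold change of FPKM + 1 (vertical axis) for Dstyk, Ripk1, Ripk2 and Ripk4 in 3 comparisons, with 95% confidence intervals from limma; filled points passed the adjusted threshold of 0.05 and open points did not. Dstyk in sh1 and Ripk4 in sh4 are open, and the Ripk4 points for sh1 against NC and sh4 against sh1 lie at -2.04 and 2.23.

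Ripk1, the scaffold of the TNF receptor complex, rose in both groups. Its level was 2.90 and 2.68 FPKM in the NC libraries, 7.001 and 6.58 in the sh1 libraries, and 5.18 and 5.41 in the sh4 libraries. These values rest on 382 and 343 reads in NC, 976 and 968 in sh1, and 798 and 829 in sh4, over a gene length of 8344 bp. All 3 groups stood apart from each other, with sh1 highest, though the share of all IDs with groups so separated was not counted. The mean in sh1 was 2.43 times that in NC and the mean in sh4 was 1.90 times that in NC. The log2 fold change of Ripk1 was 1.04 in sh1 (SE 0.07, adjusted p = 1.7e-08) and 0.73 in sh4 (SE 0.07, adjusted p = 5.5e-07). The rise was smaller in sh4 than in sh1, by -0.31 (SE 0.07, adjusted p = 0.0016). In sh1, 691 of the 12755 tested IDs had a higher fold change than Ripk1, and in sh4 1425 did.

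Ripk3, the partner of Ripk1 in necroptosis, was at or under 1 read in each NC and sh4 library and was low in both sh1 libraries. It had 1 read in each NC library, 6 and 18 reads in the sh1 libraries, and 0 and 1 in the sh4 libraries, over a gene length of 2292 bp. The FPKM values were 0.028 and 0.028 for the NC libraries, 0.16 and 0.45 for the sh1 libraries, and 0 and 0.024 for the sh4 libraries. For sh4 replicate 1, a count of 0 allows up to 3 reads, or 0.071 FPKM. Both sh1 libraries were above all others, yet they differed from each other by more than the lower one differed from NC. Summed over its libraries and scaled as the deposited values are, sh1 held 10.9 times the NC level, with an exact 95% interval of 2.70 to 94.99. That interval covers counting error only and not the spread between libraries. In a fit with no filter on low values, the log2 fold change of Ripk3 in sh1 was 0.33 (SE 0.12) and did not pass (limma, adjusted p = 0.11). NC and sh4 were both at or under 3 reads in each library, so no fold between them is given.

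Ripk2, the kinase of the NOD pathway, fell in sh4 to 54.4% of its NC mean and was at 84.2% in sh1. The NC libraries held 8.10 and 7.94 FPKM, the sh1 libraries 7.12 and 6.39, and the sh4 libraries 4.29 and 4.43. Read numbers were 360 and 343 in NC, 335 and 317 in sh1, and 223 and 229 in sh4, over a gene length of 2816 bp. The 3 groups did not overlap and lay in the same order as for Dstyk, with NC highest and sh4 lowest. The share of all IDs with groups so separated, or in that order, was not counted, so neither sets Ripk2 apart. The log2 fold change of Ripk2 was -0.75 in sh4 (SE 0.08, adjusted p = 3.7e-06) and -0.22 in sh1 (SE 0.08, adjusted p = 0.035). The fall was larger in sh4, by -0.53 (SE 0.08, adjusted p = 0.00013). In sh1 the call was lost without sh1 replicate 2 (-0.15, adjusted p = 0.24), without NC replicate 1 (-0.21, adjusted p = 0.11) and without NC replicate 2 (-0.23, adjusted p = 0.078).

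Of the 4 tested genes, Ripk4, the kinase of epidermal differentiation, differed most between the groups. It fell in sh1 to 17.6% of its NC mean and was at 115.8% in sh4. Its level was 11.3 and 10.7 FPKM in the NC libraries, 1.62 and 2.24 in the sh1 libraries, and 12.8 and 12.7 in the sh4 libraries. The sh1 libraries held 97 and 142 reads, the NC libraries 640 and 588 and the sh4 libraries 847 and 834, over a gene length of 3591 bp. Both sh1 libraries were thus far below every other library, and both sh4 libraries were above both NC libraries. The gap between the higher sh1 library and the lower NC library was 8.43 FPKM, while libraries of a group differed by at most 0.63 FPKM.

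The log2 fold change of Ripk4 in sh1 was -2.04 (SE 0.09, adjusted p = 6.2e-10), and 57 of the 12755 tested IDs had a lower value. In sh4 it was 0.20 (SE 0.09, 95% interval -0.0068 to 0.40, adjusted p = 0.080) and did not pass. By the direct test Ripk4 was higher in sh4 than in sh1 by 2.23 (SE 0.09, adjusted p = 4.4e-10), a ratio of mean levels of 6.58. Only 28 of the tested IDs had a higher value in that comparison. The small value in sh4 passed the threshold by voom on the recovered reads (0.21, adjusted p = 0.029), with libraries set to an equal sum of FPKM (0.24, adjusted p = 0.033), without sh1 replicate 1 (0.20, adjusted p = 0.033) and without sh1 replicate 2 (0.20, adjusted p = 0.034).

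**Figure D3:**
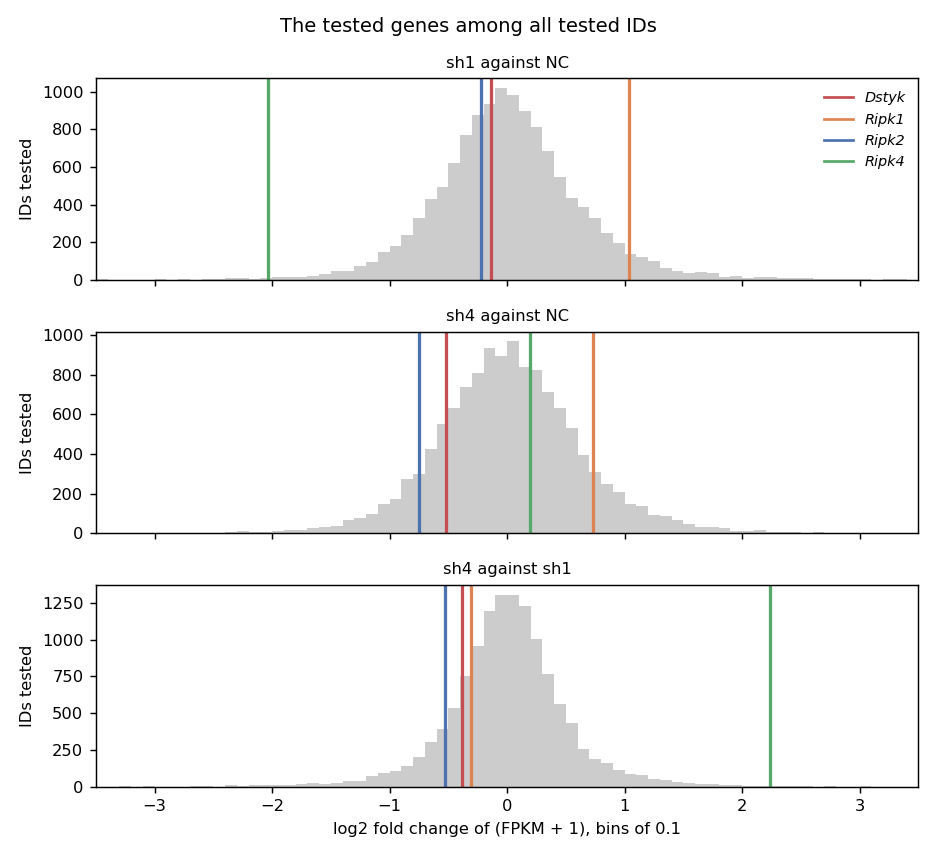
Number of tested IDs (vertical axes) by log2 fold change of FPKM + 1 (horizontal axis, shown from -3.5 to 3.5 in bins of 0.1) in the 3 comparisons, with the values of 4 genes as coloured lines. Ripk4 lies in the lower tail for sh1 against NC and in the upper tail for sh4 against sh1, and Dstyk lies in the body of the distribution in all 3 panels.

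The order of the 5 genes by level per length differed between the groups. In NC it was Ripk4, Ripk2, Dstyk, Ripk1 and Ripk3, and no neighbours in that order overlapped between libraries. In sh4 it was Ripk4, Ripk1, Ripk2, Dstyk and Ripk3, again with no overlap. In sh1, Ripk1 and Ripk2 led with 6.79 ± 0.29 and 6.76 ± 0.52 FPKM (SD, n = 2 each), and these overlapped. Dstyk, Ripk4 and Ripk3 followed in sh1 without overlap. Ripk4 accounted for 40.2% of the summed FPKM of the 5 genes in NC, 9.32% in sh1 and 49.0% in sh4. Ripk1 accounted for 10.2%, 32.8% and 20.4%. The sum itself was 28.2 and 26.5 FPKM in the NC libraries, 20.9 and 20.6 in the sh1 libraries, and 25.7 and 26.2 in the sh4 libraries, lowest in both sh1 libraries.

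Ratios of FPKM within a library do not depend on the scaling between libraries. The ratio of Ripk1 to Dstyk was 0.49 and 0.52 in NC, 1.41 and 1.34 in sh1, and 1.497 and 1.48 in sh4, so that Ripk1 was the lower of the pair in both NC libraries and the higher in the other 4. The ratio of Ripk2 to Dstyk was 1.37 and 1.54 in NC, 1.43 and 1.30 in sh1, and 1.24 and 1.21 in sh4, with NC and sh1 overlapping. The ratio of Ripk4 to Dstyk was 1.91 and 2.07 in NC, 0.33 and 0.46 in sh1, and 3.69 and 3.47 in sh4. These ratios show unequal change of 2 genes, and do not show which of them changed.

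Among the RIP kinases, Ripk2 had the profile nearest to that of Dstyk. Nearness was measured as the root-mean-square distance between log2(FPKM + 1) profiles over the 6 libraries, each centred on its mean, among 7691 IDs with a mean of at least 5 FPKM. The distance to Dstyk was 0.11 for Ripk2, 0.57 for Ripk1 and 1.11 for Ripk4, and 328, 6662 and 7571 of the IDs lay nearer than these. For Ripk3 it was 0.25, with 2484 of the IDs nearer. Ripk3 was at or under 18 reads in each library, and FPKM + 1 understates the change of such low genes. The nearest ID, ENSMUSG00000028104, lay at a distance of 0.022. Its NC libraries held 18.2 and 16.5 FPKM, its sh1 libraries 16.0 and 16.0, and its sh4 libraries 11.9 and 11.9. ENSMUSG00000022867 followed at 0.032. Its level was 14.9 and 13.5 FPKM in the NC libraries, 12.2 and 12.6 in the sh1 libraries, and 8.91 and 9.58 in the sh4 libraries. Their log2 fold changes in sh4 were -0.50 and -0.57. Values close to that of Dstyk follow from choosing the IDs by nearness to its profile, and are not a separate result. In sh1 the values were -0.11 and -0.18, and the second passed the threshold (limma, adjusted p = 0.024), where Dstyk did not. Dstyk's own profile had a root-mean-square of 0.23 around its mean, which is the distance at which an ID that does not vary would lie. The distance of Ripk3 was above that value. The number of IDs below it was not counted.

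**Figure D4:**
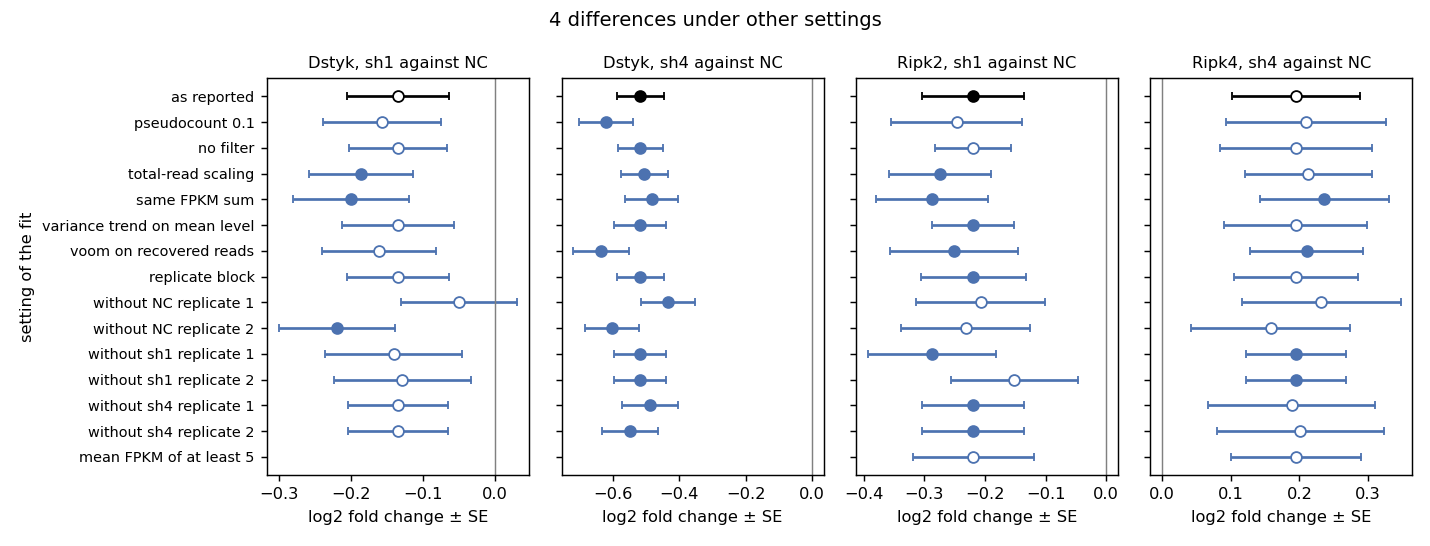
Log2 fold change with its standard error (horizontal axes) of Dstyk in sh1 and in sh4, Ripk2 in sh1 and Ripk4 in sh4, each against NC, under each setting of the fit (vertical axis); filled points passed the adjusted threshold of 0.05. Dstyk in sh4 is filled under every setting that kept the gene, and the other 3 differences are filled under some settings and open under others.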

How the data were processed

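RNA abundance was measured in 6 libraries. The authors deposited 1 FPKM value per gene ID and library. HISAT2 2.0.5 and the build hg18 come from the submitters' processing notes. What counted the reads, against which annotation and with which filters, is not given in the sources used. Whole reads and gene lengths were recovered from the steps of the FPKM values, and for 25747 of 25747 IDs above 0 they rebuilt every value to within 1e-06 FPKM plus 1e-07 of the value. On simulated data of 24547 IDs, 95.8% were recovered exactly. The recovered denominators followed median-of-ratios size factors, which means that the FPKM values were already scaled between libraries when deposited.

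Tests were run with limma 3.58.1 (R 4.3.3). Values were log2(FPKM + 1), and an ID entered if 2 or more libraries reached 1 FPKM. There was 1 fit over all libraries with 3 residual degrees of freedom, with robust empirical Bayes with the variance trend on mean recovered reads. That step draws the spread of each gene toward that of all tested IDs. The tested genes thereby had 12.7 degrees of freedom, most of them borrowed from other IDs. Counts were also simulated with 200 changed IDs and a fixed dispersion of 0.005. For sh1 against NC (12387 IDs), 95.8% of changes of 1 log2 unit and 48.5% of changes of 0.5 were recovered, with 11 false among 150 calls. Between sh4 and sh1, where no change was set, all 3 calls were false. In the real data 65.6% of IDs passed for sh1, so these rates do not carry over to the real tests. All 5 genes are named whatever their values, and the 2 IDs nearest to Dstyk in profile are given. The genes, lists and tests were chosen with earlier results of these data known. The 10 lists of pathway and cell type genes (130 symbols) were not analysed here, since no ID matched a symbol.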

Additional observations from a re-analysis of the deposited data

Results flagged for a closer look

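For 4 genes the change from NC differed between the libraries labelled sh1 and those labelled sh4, by limma's test of sh4 against sh1. In that test the NC libraries drop out of the fold change but still enter the estimate of the spread. On the log2 scale, sh4 minus sh1 came to 2.23 for Ripk4, -0.53 for Ripk2, -0.38 for Dstyk and -0.31 for Ripk1. Every sh4 library lay above every sh1 library for Ripk4 and below every sh1 library for the other 3 genes. The share of all IDs with groups so separated was not counted. By the same limma test 56.0% of all tested IDs passed, so passing does not set these genes apart. In sh4, the group with the lower Dstyk level, Ripk4 was above NC in both libraries, but that difference did not pass (0.20, limma adjusted p = 0.080). In sh1, where the fall of Dstyk did not pass either, Ripk4 was low. The groups of Ripk2 lay in the same order as those of Dstyk, but the share of all IDs in that order was not counted. A link between Dstyk and these genes was not tested. The labels name no batch, so handling that followed the groups cannot be told apart from them.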

How the results depend on the processing

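Over the 12 differences of the 4 tested genes, 149 of 162 alternative values kept direction and call, 6 lost the call, 7 gained it and 0 changed sign. Many of these alternatives leave the fold change as it was by construction, so that only the call could move. They are another filter, another variance trend, the replicate block, and leaving out a library of the group not compared. The value for Ripk2 in sh1 lost its call with a pseudocount of 0.1 (-0.25), with no filter (-0.22) and with a mean of at least 5 FPKM (-0.22), a filter that removes Dstyk and Ripk1. The value for Dstyk in sh1 gained a call with total-read scaling (-0.19) and with the same FPKM sum (-0.20). Ripk4 in sh4 gained one by voom on the recovered reads (0.21) and with the same FPKM sum (0.24). The cause was not tested. Fits that each left out 1 library gave -0.22 to -0.050 for Dstyk in sh1, -0.29 to -0.15 for Ripk2 in sh1 and 0.16 to 0.23 for Ripk4 in sh4. Such a fit takes the group's remaining library to vary as much as the other groups do. The other 9 differences kept direction and call under every alternative run, with a largest adjusted p of 0.032 (limma), for Ripk1 between sh4 and sh1.

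With the replicate block, 8503 IDs were called for sh1, 8836 for sh4 and 7345 between them, and no call of the 4 genes changed. Libraries with the same number had deviations from their group means that correlated at -0.014 (NC with sh1), 0.12 (NC with sh4) and -0.021 (sh1 with sh4), so the numbers were not taken to pair the libraries. Each number of IDs called moved by less than 1.5 times under the alternatives run. The planned edgeR test was not run, since the files hold FPKM. Depth limits Ripk3 most among the 5 genes, at 18 reads or fewer in each library.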
